A study of Mus musculus with 13 samples.

Results

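The 10 genes of oocyte transcription control followed here are among the 22442 genes in the Ribo-seq tables and were chosen by name and found by their Ensembl identifiers. They are *Nobox*, *Figla*, *Lhx8*, *Sohlh1* and *Sohlh2*, the regulators of early follicle growth, *Taf4b* and *Gtf2b*, which belong to the basal initiation machinery, and *Pou5f1*, *Sall4* and *Klf17*, factors of the germ line and the early embryo. All 10 were also listed in the acRIP-seq tables. The Ribo-seq libraries came from WT and Nat10-ZcKO oocytes, about 100 oocytes each, at the germinal vesicle (GV) stage, when the oocyte is still in meiotic prophase, and at metaphase II (MII), when it awaits fertilisation. Nat10-ZcKO oocytes lack exons 4 to 5 of *Nat10*, the enzyme that places N4-acetylcytidine (ac4C) on RNA. The paper gives their genotype as Nat10 lox/- with Zp3-Cre. This Cre is active in growing oocytes and removes the exons from the floxed allele. There were 3 WT GV, 3 Nat10-ZcKO GV, 2 WT MII and 3 Nat10-ZcKO MII libraries of C57BL/6J mice, and the series' design text also mentions tamoxifen injection for 3 days for the Ribo-seq samples, without saying which animals received it, a step that Zp3-Cre as described does not need. The animals of all libraries were listed at postnatal day 21. GV oocytes came from hormone-primed females. For mature oocytes the paper's methods describe superovulation at that age by the hormones PMSG and then hCG, without naming the Ribo-seq MII samples. The acRIP-seq libraries, 1 with anti-ac4C and 1 with anti-IgG, each held mRNA fragments of about 2000 WT GV oocytes. The study's methods speak of biological replicates in general and do not say which animals each of these libraries came from, so p-values measure the spread between these libraries, part of which may be technical.

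NOBOX and LHX8 are homeobox and LIM-homeobox proteins, and FIGLA, SOHLH1 and SOHLH2 are basic helix-loop-helix proteins. In the follicle they switch on the genes of the zona pellucida, the egg coat, and of proteins that the egg stores for the embryo. TAF4B is a subunit of TFIID found mostly in gonads, and GTF2B (TFIIB) helps to place RNA polymerase II at the promoter. POU5F1 (OCT4) and the zinc-finger protein SALL4 belong to the pluripotency network, and KLF17 is a zinc-finger factor of oocytes and early embryos. The fully grown oocyte stops transcription before meiosis resumes, and from then on the proteins it makes depend on which stored mRNAs ribosomes read. That choice is made largely through the 3′ end of the mRNA, where the polyadenylation hexamer and U-rich cytoplasmic polyadenylation elements set the length of the poly(A) tail.

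The 3′ ends of the 7 factors with more than 3 footprints in some library are shown here, because their footprints moved in different directions at maturation. Each line gives the 30 bases that end with the last polyadenylation hexamer (AATAAA or ATTAAA, in capitals) in the final 40 bases of the annotated mRNA, read 5′ to 3′ on the sense strand as DNA from GENCODE M21 on GRCm38. *Nobox* has no such hexamer, and its final 30 bases are given.
Sall4: cctgctgatactgtaaggtctgaaAATAAA
Nobox: aactactgggtgtttggttttgtgaatgaa
Lhx8: tacaaagcctaccatcctaagttcATTAAA
Figla: tgagtatttttcatgtaaaatataATTAAA
Pou5f1: ctgtcactcatcattttgttcttaAATAAA
Klf17: aaagaaccctgtgggggctcaaagATTAAA
Gtf2b: ggtattaaaataatgtaattctcaAATAAA
The windows lie in the 3′ untranslated exons at chr2:168748353-168748382 on the minus strand for *Sall4*, chr6:43303674-43303703 (minus) for *Nobox*, chr3:154306313-154306342 (minus) for *Lhx8*, chr6:86020946-86020975 (plus) for *Figla*, chr17:35510724-35510753 (plus) for *Pou5f1*, chr4:117757849-117757878 (minus) for *Klf17* and chr3:142783563-142783592 (plus) for *Gtf2b*. The polyadenylation element, searched as TTTTAT or TTTTAA on the sense strand in the final 100 bases, had no match in any of these 7 mRNAs, 2 in *Sohlh2* and 1 in *Taf4b*. Among 19374 genes with a 3′ untranslated region of at least 100 bases, 27.5% held it, 73.7% held the hexamer and 21.1% held both. Other U-rich forms of the element were not searched, and the ends used in oocytes may differ from the annotated ones.

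Library totals ranged from 4815 counts (WT MII replicate 2) to 279464, so that a gene with 0 counts, taking 3 counts as the limit, could still have had up to 623 CPM, a count divided by the total of its library and scaled, in the first and 10.7 CPM in the last. The 12 oocyte markers took 5.91% to 8.06% of the counts in the WT GV libraries and 11.4% in Nat10-ZcKO GV replicate 3, but 0.0212% (exact 95% interval 0.00972% to 0.0403%) in Nat10-ZcKO GV replicate 1 and 1.54% (1.44% to 1.65%) in replicate 2. The 16 adipocyte markers took 1.85% and 0.414% in those replicates and 0.0220% to 0.0447% in the other 4 GV libraries. At MII the oocyte markers took 1.02% to 1.18% in the Nat10-ZcKO libraries, 1.03% in WT replicate 1 and, from 1 count, 0.0208% in WT replicate 2. *Nat10* itself had 3 to 11 footprint counts in the WT GV and 1 to 5 in the Nat10-ZcKO GV libraries, too few to check the deletion. Nat10-ZcKO GV replicates 1 and 2 and WT MII replicate 2 are therefore named wherever a result rests on them. Results are also given over the other 8 libraries, a set chosen after the data were seen, with 4 libraries at each stage. At GV these were the WT libraries and Nat10-ZcKO replicate 3, and at MII WT replicate 1 and the Nat10-ZcKO libraries. Means and overlaps over them therefore set mostly WT GV against mostly Nat10-ZcKO MII, so stage and genotype are largely mixed there.

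The ribosome footprints of the 10 genes together were a small part of the libraries. They took 0.107%, 0.123% and 0.153% of the counts in WT GV, 0.135% in Nat10-ZcKO GV replicate 3, 0.126% in WT MII replicate 1 and 0.132% to 0.172% in Nat10-ZcKO MII. Nat10-ZcKO GV replicates 1 and 2 gave 0.00944% and 0.0928%, and WT MII replicate 2 gave 0.0208%, from 1 count. What changed between the stages was which factor the footprints came from.

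**Figure D1:**
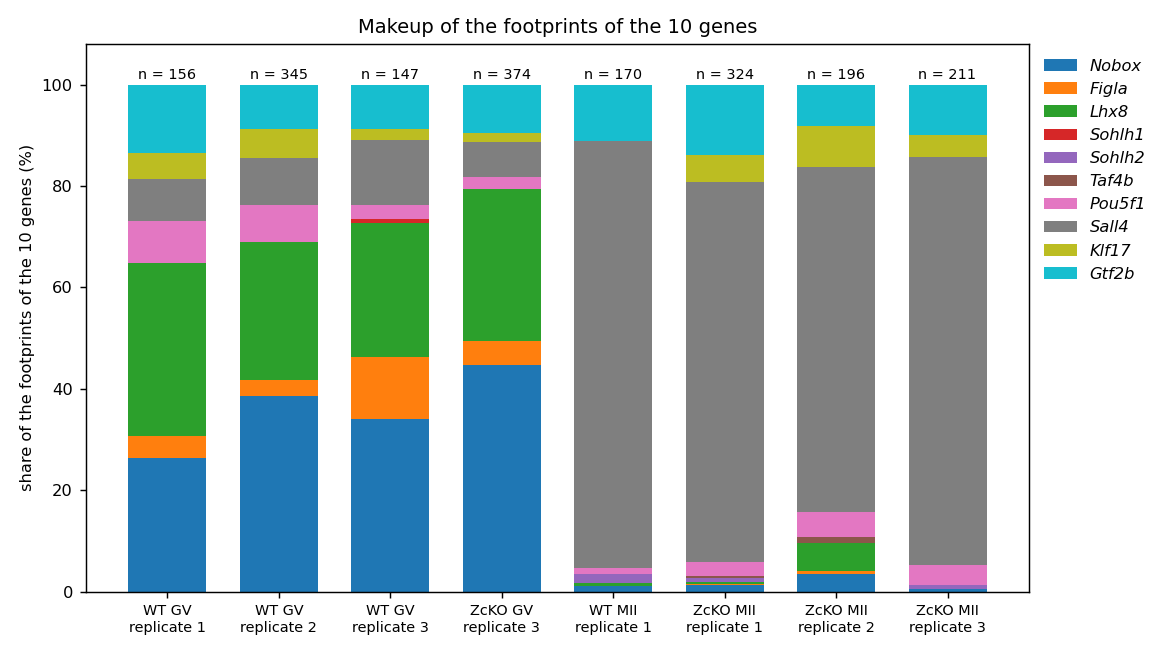
Stacked bars give each gene's share (%) of the footprint counts of the 10 genes in the 8 libraries with at least 100 such counts, with that number (n) above the bar. *Nobox* and *Lhx8* fill most of the 4 GV bars, and *Sall4* takes 67.9% to 84.1% of the 4 MII bars against 6.95% to 12.9% at GV.

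In WT GV oocytes the follicle regulators *Lhx8* and *Nobox* had the highest levels per coding length (TPM, which scales each library for gene length and total). *Lhx8* stood at 412, 383 and 468 TPM in the 3 libraries (mean 421 ± 42.9, SD, n = 3), and 98.8% of 22359 genes with a coding length had a mean at or below it. *Nobox* followed at 228, 388 and 429 TPM (348 ± 106). *Figla* had the next highest mean but varied most, with 106, 87.2 and 420 TPM (204 ± 187), and its high library held 18 counts against 7 and 11. *Gtf2b* was at 176 ± 26.0 TPM. It lay above *Figla* in the other 2 libraries and in the pooled counts of all 3 (167 against 153 TPM), so the place of *Figla* rests on WT GV replicate 3. Below *Gtf2b* came *Pou5f1* with 84.3 ± 31.2, *Klf17* with 66.2 ± 25.3 and *Sall4* with 53.7 ± 23.3 TPM. The ranges of neighbours in this order overlapped, except that every library had more *Gtf2b* than any had *Pou5f1* and more *Sall4* than any had *Sohlh1*.

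**Figure D2:**
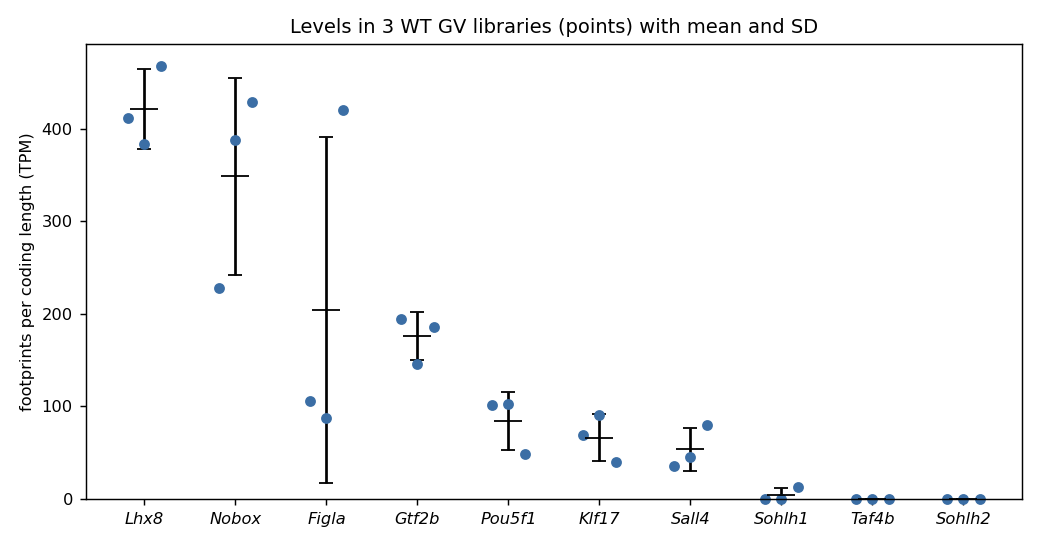
Points are the 3 WT GV libraries, in TPM (footprints per coding length, vertical axis), with the mean and SD as bars, for each of the 10 genes. *Lhx8* and *Nobox* lead, *Figla* is high in 1 library, *Gtf2b* sits at 146 to 195 TPM, and *Sohlh1*, *Taf4b* and *Sohlh2* are at or near 0.

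*Sohlh1*, *Sohlh2* and *Taf4b* were barely read. *Sohlh1* had 1 count in all 11 libraries, in WT GV replicate 3, and none in either acRIP-seq library. *Sohlh2* had no count in any of the 6 GV libraries, which together allow 3.36 CPM. At MII it had 3 counts in WT replicate 1, and 3, 0 and 2 in Nat10-ZcKO. *Taf4b* likewise had none at GV, then 1, 2 and 0 counts in the Nat10-ZcKO MII libraries and none in WT MII. Its mRNA was found in GV oocytes, with 44 anti-ac4C fragments (33.2 TPM) but 0 IgG fragments, while 0 footprints in the 3 WT GV libraries allow 2.89 TPM. The 33.2 TPM is a level after a pull-down, so this comparison gives no translation efficiency. The median gene had a ratio of footprint to anti-ac4C TPM of 0.397.

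*Sall4* was the one factor called higher at MII in both genotypes by edgeR, in the fits given below. Its footprints were 89.4, 115 and 198 CPM in the WT GV libraries and 1060 CPM (143 counts) in WT MII replicate 1, while WT MII replicate 2 held 1 count (208 CPM). In Nat10-ZcKO they were 23.6, 271 and 93.8 CPM at GV and 1293, 906 and 1065 CPM at MII. Every Nat10-ZcKO MII library lay above every Nat10-ZcKO GV library, as was so for 28.6% of the genes tested there. In WT the same order, shared with 3.81% of the genes tested, says nothing for WT MII replicate 2, where any single count gives 208 CPM. Among the 8 libraries the mean was 1081 CPM at MII and 124 CPM at GV, an 8.73-fold difference without overlap, which 33.4% of the genes tested in these libraries shared.

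*Nobox* and *Lhx8* were lower at MII. *Nobox* was at 282, 476 and 520 CPM in WT GV, at 14.8 CPM (2 counts) in WT MII replicate 1, and at 0 counts in replicate 2. In Nat10-ZcKO it was at 0, 251 and 603 CPM at GV and at 21.3, 47.7 and 6.26 CPM at MII. Over the 8 libraries the mean was 20.9-fold lower at MII, without overlap, as for 30.4% of the genes tested in these libraries.

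*Lhx8* gave 364, 336 and 406 CPM in WT GV and 7.42 CPM (1 count) in WT MII replicate 1, with 0 counts in replicate 2, and like *Nobox* and 52.2% of the genes tested it did not overlap between the WT stages, although 0 counts in replicate 2 allow 623 CPM. Nat10-ZcKO GV gave 0, 213 and 404 CPM, and Nat10-ZcKO MII 5.32, 75.0 and 0 CPM. The 75.0 CPM of Nat10-ZcKO MII replicate 2 came from 11 of the 12 counts of its group, so this library stood apart. The mean over the 8 libraries was 17.2-fold lower at MII, again without overlap.

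**Figure D3:**
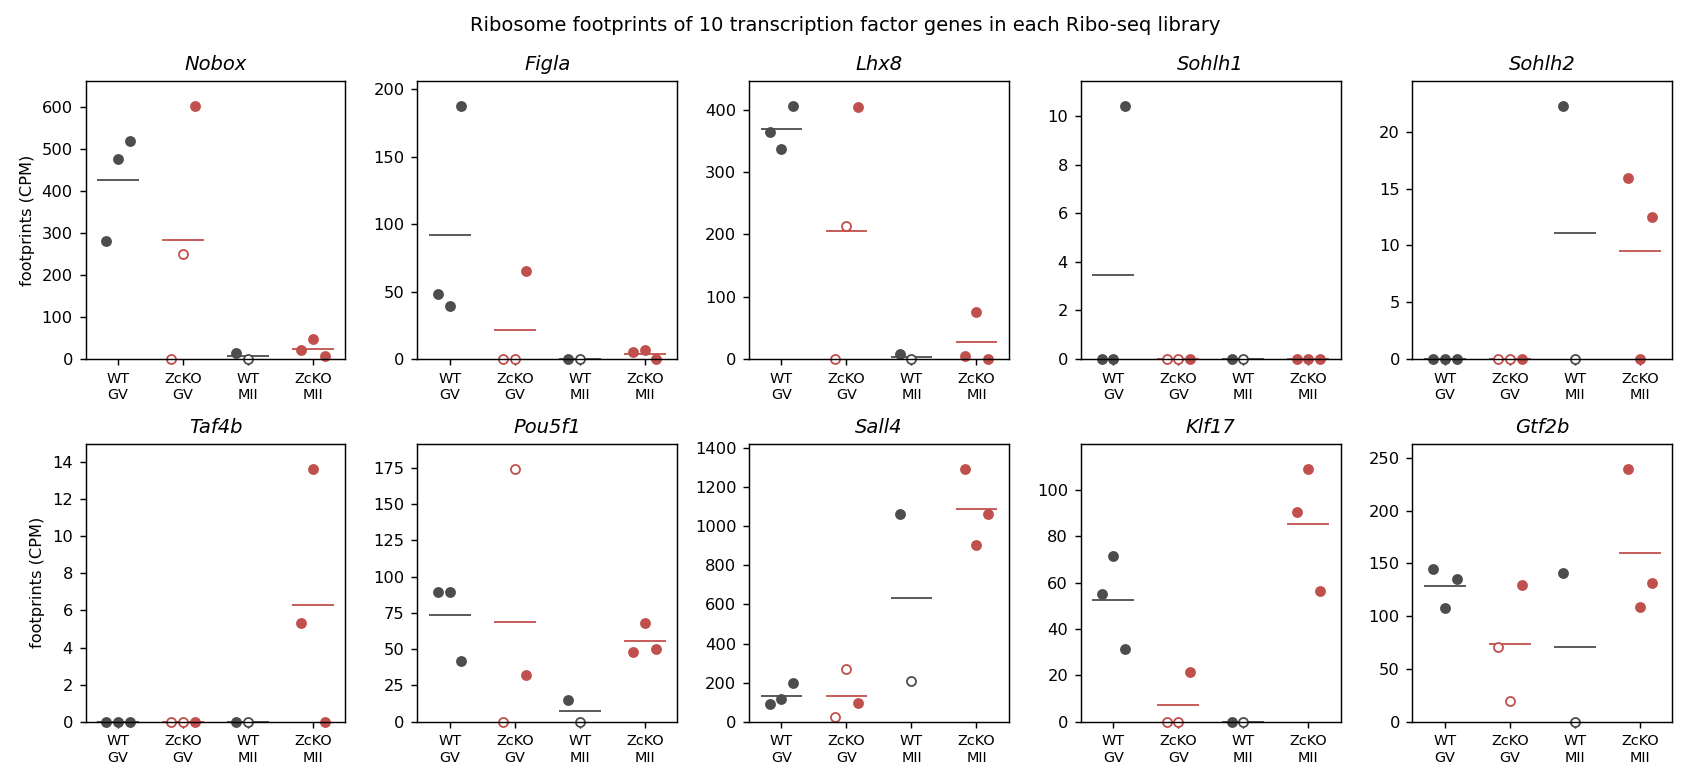
Each panel plots 1 gene's footprints in CPM (vertical axis, own scale) in the 11 Ribo-seq libraries by group, with WT in grey, Nat10-ZcKO in red and group means as lines. Open circles are Nat10-ZcKO GV replicates 1 and 2 and WT MII replicate 2. *Sall4* is high at MII, *Nobox*, *Lhx8* and *Figla* are high at GV, and *Klf17* is at 0 in both WT MII libraries.

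*Figla* had the same direction at lower counts. WT GV held 7, 11 and 18 counts (48.1, 39.4 and 187 CPM) and both WT MII libraries held 0, which makes it at least 3.11-fold lower in WT MII replicate 1 than in the pooled WT GV counts (69.1 CPM), with the limit of 3 counts taken in replicate 1. Without WT GV replicate 3, which held 18 of the 36 counts, the bound was 1.90-fold. Nat10-ZcKO held 0, 0 and 18 counts at GV and 1, 1 and 0 at MII. It passed the count filter in none of the 5 planned fits and was not tested there.

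Maturation was tested with edgeR's quasi-likelihood test, with p-values adjusted by Benjamini-Hochberg over all genes tested, in each genotype. In WT, 5 of the 10 genes passed the count filter, and 9.98% of the 2045 genes tested were called higher at MII and 11.5% lower. *Sall4* was called higher (log2 fold change 2.79, SE 1.01, adjusted p = 0.0354), and *Nobox* (-4.43, SE 1.35, adjusted p = 0.0123) and *Lhx8* (-5.15, SE 1.47, adjusted p = 0.00779) lower. *Pou5f1* (-2.01, SE 1.01) and *Gtf2b* (0.38, SE 0.69) did not pass, with adjusted p-values of 0.126 and 0.696, though *Pou5f1* was called lower by DESeq2 (adjusted p = 0.0359) and with library size only (0.0344). These calls rest on a pair of unequal MII libraries. Without WT MII replicate 2, *Sall4* (3.13), *Nobox* (-4.68) and *Lhx8* (-5.41) kept their calls and *Figla* (-6.69) and *Klf17* (-6.19) were called lower too, the last 2 from 0 counts, but the MII arm is then 1 library and is taken to vary like the WT GV ones. Without WT MII replicate 1, where only the library of 4815 counts is left, *Sall4* turned to -2.53 with an adjusted p of 0.0343 and *Gtf2b* fell by 7.17 on the log2 scale with an adjusted p of 0.00508. Leaving out WT GV replicates lost calls as well. *Sall4* and *Nobox* lost theirs without any 1 of the 3, with adjusted p-values of 0.107 to 0.841, and *Lhx8* without replicates 2 (0.500) or 3 (0.0989).

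In Nat10-ZcKO, 3 of the 10 genes passed the filter, and 10.2% of 2225 genes were called higher at MII and 6.02% lower. *Sall4* was called higher (2.87, SE 0.86, adjusted p = 0.0402). *Lhx8* (-3.48, SE 1.31) and *Gtf2b* (0.58, SE 0.75) were not called, with adjusted p-values of 0.0822 and 0.575. Without any 1 Nat10-ZcKO MII replicate the *Sall4* call was lost, at adjusted p-values of 0.0885 to 0.154. *Lhx8* was called without Nat10-ZcKO GV replicate 1 (-4.00, adjusted p = 0.0188). Without both replicates 1 and 2, whose oocyte markers were low and adipocyte markers high, *Sall4* (3.22), *Nobox* (-4.91) and *Lhx8* (-4.30) were all called, with edgeR adjusted p-values of 6.66e-06, 7.15e-16 and 3.96e-11. The GV arm is then 1 library, taken to vary like the 3 MII ones, so these p-values carry no spread of GV libraries. The part of those other-tissue markers in the genotype results was not tested.

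Over the 8 libraries in 1 fit, with terms for stage and genotype, *Sall4*, *Nobox* and *Lhx8* were called with smaller errors. The fit takes the stage effect as the same in both genotypes, with only 1 Nat10-ZcKO library at GV and 1 WT library at MII. *Sall4* rose by 3.10 (SE 0.29, adjusted p = 2.16e-08), *Nobox* fell by 4.92 (SE 0.43, adjusted p = 7.08e-09) and *Lhx8* fell by 4.57 (SE 0.57, adjusted p = 7.43e-07) on the log2 scale. They were called without any single one of the 8 libraries and under the other scaling, tool and filters tried. *Gtf2b* stayed near 0 (0.02, 95% interval -0.69 to 0.74). The background of this fit is high, since 33.9% of its 2185 genes were called higher and 36.3% lower, and 33.4% and 30.4% did not overlap between the stages. A call at this background is not a result about these 3 genes in particular. Footprint counts alone do not separate more mRNA from more ribosomes per mRNA, and in these pooled samples fewer cells of a type and less RNA per cell cannot be told apart.

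**Figure D4:**
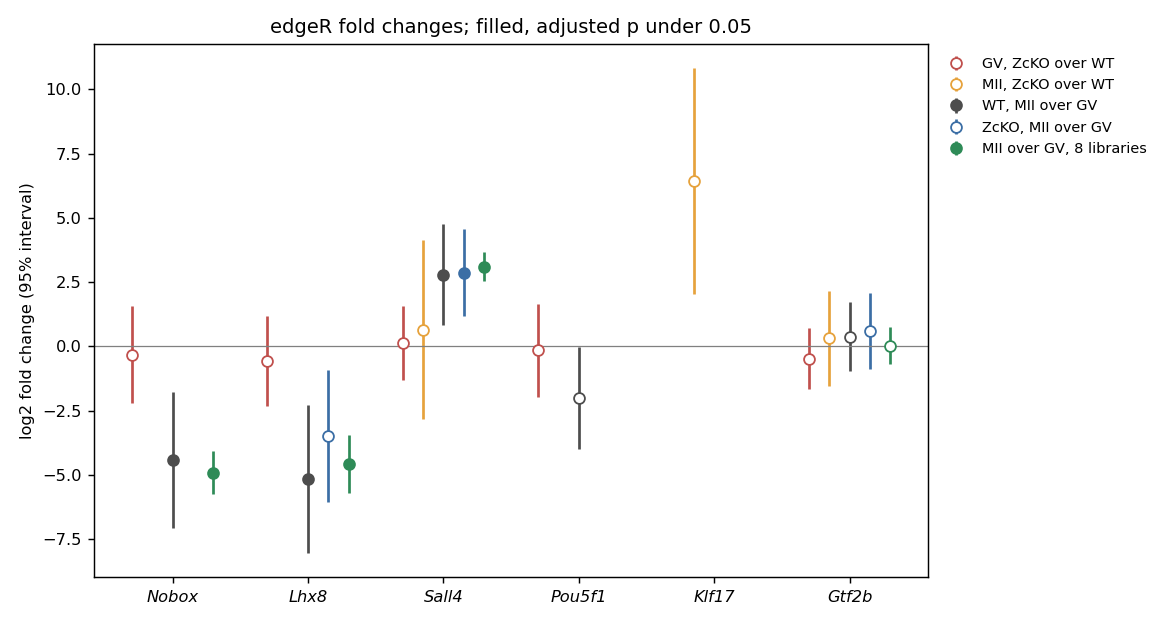
Log2 fold changes from edgeR with 95% intervals (vertical axis) for the 6 genes that could be tested, with each colour a comparison and filled symbols an adjusted p under 0.05. *Sall4* lies above 0 and *Nobox* and *Lhx8* below it in the stage comparisons, and no gene is filled in either genotype comparison.

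Footprints of *Gtf2b* were called different between the stages in neither genotype, nor over the 8 libraries. They stood at 144, 107 and 135 CPM in WT GV, at 141 and 0 CPM in WT MII, at 70.8, 19.3 and 130 CPM in Nat10-ZcKO GV and at 239, 109 and 132 CPM in Nat10-ZcKO MII. The 3 lowest values are those of the libraries with few oocyte-marker counts, from 3, 1 and 0 counts. The interval of the difference over the 8 libraries, given above, leaves room for a change of up to 0.74 on the log2 scale.

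*Pou5f1* was at 89.4, 89.5 and 41.6 CPM in WT GV and at 14.8 CPM (2 counts) in WT MII replicate 1, with 0 counts in replicate 2. Nat10-ZcKO GV gave 0, 174 and 32.5 CPM, and Nat10-ZcKO MII gave 47.9, 68.2 and 50.1 CPM from 8 to 10 counts each. WT MII replicate 1 lay below all WT GV and all Nat10-ZcKO MII libraries, while the 0 counts of replicate 2 allow 623 CPM, and the Nat10-ZcKO stages overlapped. With both WT MII libraries, 52.2% of the genes tested were lower in WT MII than in WT GV without overlap. Between the genotypes at MII, 30.0% were higher in Nat10-ZcKO without overlap. In Nat10-ZcKO, 13.8% of the genes tested were lower at MII without overlap. Genes with 0 counts in Nat10-ZcKO GV replicate 1, such as *Pou5f1*, *Nobox*, *Lhx8* and *Figla*, could not be among them. Because *Pou5f1* shares 317 exon bases with the antisense gene *Gm19553*, and *Sall4* 526 with *Gm14261* on the other strand, strand-blind counting could add counts to them. Whether the shared bases lie in the coding sequence of *Pou5f1* or *Sall4* was not checked.

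Nat10-ZcKO was compared with WT at each stage to see what the loss of *Nat10* does to these genes. At GV, 0 of the 5 genes tested were called, and 0% of 1765 genes were called by edgeR, although 85 genes had an unadjusted p under 0.05 and DESeq2 called 3. The log2 fold changes were -0.32 for *Nobox* (95% interval -2.22 to 1.58), -0.58 for *Lhx8* (-2.34 to 1.18), -0.16 for *Pou5f1* (-1.98 to 1.66), 0.12 for *Sall4* (-1.33 to 1.57) and -0.48 for *Gtf2b* (-1.67 to 0.72), so 2-fold changes either way were within reach of the error for all but an increase of *Gtf2b*. With Nat10-ZcKO GV replicate 3 alone, the values were 0.71 (SE 0.31) for *Nobox*, 0.34 (SE 0.32) for *Lhx8*, -0.24 (SE 0.43) for *Sall4*, 0.23 for *Gtf2b* and -1.06 (SE 0.67) for *Pou5f1*, again with no call, and the single library is taken to vary like the WT ones. All but that of *Pou5f1* have the opposite sign to those with all 6 libraries.

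At MII, 0 of the 3 genes tested were called, and 0.191% of 2097 genes were called by edgeR, all lower. *Sall4* differed by 0.64 (95% interval -2.84 to 4.13) and *Gtf2b* by 0.31 (-1.54 to 2.16). WT MII replicate 1 and the mean of the Nat10-ZcKO libraries gave nearly equal *Sall4* levels, 1060 and 1088 CPM. In the fit of 8 libraries the genotype term was 0.69 for *Nobox* (-0.09 to 1.48), 0.47 for *Lhx8* (-0.58 to 1.52), -0.17 for *Sall4* (-0.73 to 0.39) and 0.13 for *Gtf2b* (-0.59 to 0.85), with none called and 0.0458% of genes called lower by edgeR.

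*Klf17* had the largest fitted value between the genotypes at MII. Nat10-ZcKO MII held 17, 16 and 9 counts (90.4, 109 and 56.4 CPM) and both WT MII libraries held 0, which allows 22.2 CPM in replicate 1 and 623 CPM in replicate 2. The pooled Nat10-ZcKO counts (85.0 CPM) were at least 3.82-fold higher than WT MII replicate 1, with the limit taken in that library. The fitted log2 difference was 6.43 (SE 2.24) with an edgeR adjusted p of 0.508, so it was not called, and 30.0% of the genes tested lay higher in Nat10-ZcKO MII without overlap. At GV the order was the other way, with 55.0, 71.6 and 31.2 CPM in WT and 0, 0 and 21.7 CPM in Nat10-ZcKO, where the 2 zeros are in libraries that allow 70.8 and 58.0 CPM, and 12.8% of the genes tested lay lower in Nat10-ZcKO GV without overlap. The difference between the genotype effects at MII and GV was 8.62 on the log2 scale (SE 2.45, adjusted p = 0.0464), the 1 gene of 3863 called higher (0.0259%). It kept that call in 2 of 18 alternatives, with adjusted p-values between 0.00486 and 0.971, and DESeq2 gave 5.97 with an adjusted p of 0.116. The 2 alternatives that kept it left out WT MII replicate 1 or Nat10-ZcKO GV replicate 3. The group concerned then held only libraries with few oocyte-marker counts. The other 5 of the 10 genes tested for this difference were not called.

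Genes listed as targets of the follicle factors moved in both directions at maturation. Of 15 listed targets, 4 were called higher and 10 lower over the 8 libraries, where 33.9% and 36.3% of all genes were. Their median was -2.74, against -0.07 for all genes and -3.70 for the 12 oocyte markers. *Zp1*, *Zp2*, *Zp3*, *Gdf9*, *Bmp15*, *Nlrp5*, *Padi6* and *Zar1* stand in both the target and the marker list. Libraries had been left out for few oocyte-marker counts, so the values of these genes in this fit are not independent of that choice. The zona pellucida genes *Zp1* (-4.82), *Zp2* (-5.82) and *Zp3* (-5.58), *Padi6* (-4.99) of the cytoplasmic lattices and *Nlrp5* (-4.03) of the subcortical maternal complex fell. *Oosp1* (3.39), which encodes a secreted oocyte protein, *Rfpl4* (3.19), an oocyte RING-finger protein, the growth factor gene *Gdf9* (0.98) and *Oas1d* (0.68) rose. Other genes of the list that fell were *Nlrp14* (-3.90), *Zar1* (-3.51), *Kdm1b* (-2.74), *Npm2* (-1.50) and *Kit* (-1.49), and *Bmp15* did not pass (-0.76, SE 0.41). In the fits within 1 genotype none of the 15 passed in WT and *Rfpl4* alone passed in Nat10-ZcKO.

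Of 29 other genes of the initiation machinery, 9 could be tested over the 8 libraries, and 3 were called higher and 3 lower, shares near those of all genes. *Taf1* (1.86) and *Taf8* (1.85), subunits of TFIID, and *Polr2a* (0.85), the largest subunit of RNA polymerase II, rose, while *Gtf2a1l* (-2.63), the germ cell form of TFIIA, *Brf2* (-2.10), a TFIIB relative that serves RNA polymerase III, and *Polr2b* (-1.57) fell. Of 26 other germ cell and pluripotency factors 4 were tested, of which *Foxo3* (1.56) and *Stat3* (1.17) rose and *Bnc1* (-1.75) fell. Among the oocyte markers, whose counts had served to choose the 8 libraries, 2 of 12 were called higher and 9 lower. The genes that stand in both the marker and the target list are counted here again. The highest marker was *Mos* (5.56), the kinase gene that holds the egg at MII. Of 8 granulosa and cumulus markers tested, *Ptx3* (9.61) and *Tnfaip6* (9.40), genes of the expanded cumulus, rose and *Amh* (-5.06), *Inhbb* (-3.20), *Inha* (-1.20) and *Inhba* (-1.02) fell. The 15 granulosa and cumulus markers took 0.365% to 0.482% of the counts in WT GV, 0.251% in Nat10-ZcKO GV replicate 3, 0.468% in WT MII replicate 1 and 0.170% to 0.425% in Nat10-ZcKO MII, and their part in the stage results was not tested.

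The genes whose footprints followed those of *Lhx8* most closely over 10 libraries, by Pearson's r of log2(CPM + 1) among 2013 genes, were *Eloc* (0.992), *Fbxw27* (0.991), *Kdm1b* (0.979), *Slc44a2* (0.973) and *Dnmt3a* (0.970). For *Nobox* they were *Oosp2* (0.988), *Zp3* (0.984), *Gm813* (0.978), *Mbl2* (0.972) and *Fbxw27* (0.969). For *Sall4*, added after its values were seen, they were *Mier2* (0.992), *Rfpl4* (0.987), *C2cd5* (0.986), *Ppt2* (0.982) and *March7* (0.975). These values share the stage and the libraries with few oocyte counts, and are a description.

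The acRIP-seq libraries asked which mRNAs carry ac4C in WT GV oocytes, with the study's rule of an anti-ac4C to IgG ratio above 2. There was 1 library of each, so no test was made, and intervals are exact 95% intervals of counting error. Among the 10 genes, *Pou5f1* had 233 anti-ac4C and 13 IgG fragments, a CPM ratio of 2.15 (1.23 to 4.09). *Taf4b* had 44 and 0, a ratio of at least 1.37 at the lower bound, and *Sohlh2* had 1 and 0. These 3 passed the rule, which 53.3% of 11883 genes with a fragment also did, and none of them had a lower bound above 2, against 3.69% of genes.

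*Nobox*, with the most fragments, lay below 1, at 477 and 104 fragments and a ratio of 0.549 (0.443 to 0.685), as did *Sall4* at 215 and 38 with 0.677 (0.478 to 0.983). The intervals of *Lhx8* (0.942, 0.609 to 1.52), *Gtf2b* (0.921, 0.639 to 1.37) and *Klf17* (1.54, 0.937 to 2.68) included 1, and *Figla* had 10 and 1 fragments. The median ratio was 1.27 over 4680 genes with at least 50 fragments, and 0.932 over the 6 of these factors with as many. The intervals of *Nobox* and *Sall4* lay below the median of 1.27, while those of *Lhx8* and *Gtf2b* included it. Whether this ratio goes with the direction at maturation was not tested.

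**Figure D5:**
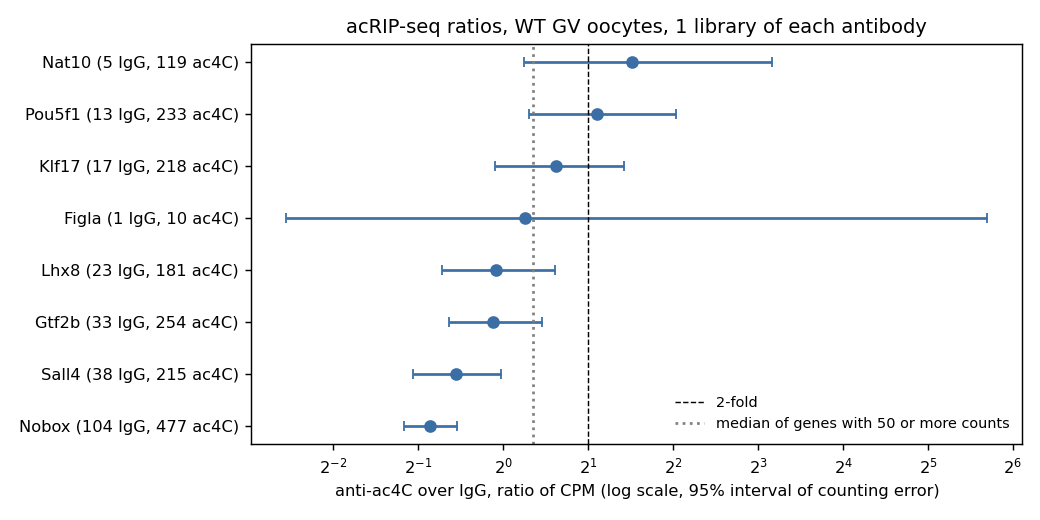
Ratio of anti-ac4C to IgG CPM (horizontal axis, log scale) with exact 95% intervals for 7 of the 10 genes and *Nat10*, 1 library each, with fragment counts beside the names. *Nobox* (0.549) and *Sall4* (0.677) lie below 1, *Pou5f1* (2.15) lies above the dashed 2-fold line, and the dotted line is the median of 1.27.

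Footprints were also set against the anti-ac4C fragments of the same stage, as a ratio of TPM in WT GV. *Figla* had 4.40 (97.3% of 8711 genes lay below), from 10 fragments, and *Lhx8* 1.52 (85.5%). *Gtf2b* had 0.818 (71.5%), and *Nobox* 0.379, *Sall4* 0.356, *Pou5f1* 0.210 and *Klf17* 0.188 lay below the median of 0.397. Among the anti-ac4C fragments *Nobox* (920 TPM) led *Pou5f1* (402), *Klf17* (352) and *Lhx8* (277), and among the IgG fragments *Nobox* (1483 TPM) led *Lhx8* (261), *Gtf2b* (206) and *Klf17* (203), so the order below *Nobox* differed between these 2 libraries. Against IgG the ratio of *Pou5f1* was 0.508. A footprint counts reads on coding bases and a fragment reads on the whole mRNA after a pull-down, so the ratio is a description and not a translation efficiency.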

How the data were processed

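Ribosome-protected fragments were measured in 11 libraries of mouse oocytes and pulled-down mRNA fragments in 2. The authors deposited whole-number counts per gene without normalization, on coding sequences for Ribo-seq and on protein-coding genes for acRIP-seq, 1 file a library and not pooled. The submitters' processing notes name cutadapt, STAR, HTSeq and mm10, with no versions. Removal of rRNA and of PCR duplicates is not given in the sources used here, so intervals and the limit of 3 counts for a 0 cover counting error only. In acRIP-seq, 46.7% (IgG) and 17.1% (anti-ac4C) of the fragments lay on no feature and were left out.

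Identifiers were matched without version to GENCODE M21 of GRCm38 (22399 of 22442 Ribo-seq genes). CPM and TPM were computed here, with the union of coding segments as length for footprints and of exons for acRIP-seq. Groups came from the labels. Tests used edgeR 4.0.16 in R 4.3.3 (filterByExpr, TMM, quasi-likelihood F-test, prior count 0.125, adjusted p under 0.05) on the libraries compared, or on all 11 for the difference between genotype effects, and were tested on simulated data. Each SE is the absolute log2 fold change over the square root of F, and 95% intervals of fold changes use the normal distribution. Alternatives were DESeq2 1.42.0, scaling, filters, a replicate block, 1 fit of all libraries and leaving out libraries. Library totals of 4815 to 279464 counts set the precision.

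The members and lists were chosen with earlier results of these data known. All 10 members were named, with *Nat10*, list genes that passed a test, and the 5 genes most like 2 members (highest TPM in WT GV, most anti-ac4C fragments). *Sall4*'s likeness and the fits of 8 libraries were added after the values were seen, and so were the list genes named by those fits. RefSeq promoter and protein sequences were not used here.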

Additional observations from a re-analysis of the deposited data

Results flagged for a closer look

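*Klf17* was the one factor with a called difference between the genotype effects at the 2 stages, 8.62 on the log2 scale in the edgeR fit of all 11 libraries. That call was kept in only 2 of 18 alternatives, described above. The mean of the GV libraries was 52.6 CPM for WT against 7.22 for Nat10-ZcKO, and that of the MII libraries 0 for WT against 85.3 CPM for Nat10-ZcKO, with no overlap between genotypes at either stage. Of the genes tested, 12.8% likewise lay lower in Nat10-ZcKO at GV without overlap, and 30.0% higher at MII. The same 4 means give a fall from 52.6 to 0 CPM at maturation in WT and a rise from 7.22 to 85.3 CPM in Nat10-ZcKO. The low groups include Nat10-ZcKO GV replicates 1 and 2 and WT MII replicate 2, where 0 counts allow 70.8, 58.0 and 623 CPM. Without these 3 libraries the difference was 7.92, with an adjusted p of 0.386 and an unadjusted p of 0.00115. No other factor moved in opposite directions without overlap in the 2 genotypes or the 2 stages.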

How the results depend on the processing

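Depth was a limit: 4 to 7 of the 10 factors had too few counts for each planned fit, and WT MII rests on 1 library of usable depth. Over both genotypes in 8 libraries, *Sall4*, *Nobox* and *Lhx8* kept direction and call in all 12 alternatives, with log2 ranges of 2.97 to 3.30, -5.39 to -4.55 and -6.54 to -4.05. The within-genotype calls did not hold as well, and the cause was not tested.

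Of the 10 factors, 3 were called for WT maturation, against 4 each with DESeq2 and library size only, which added *Pou5f1*, 0 with at least 10 counts over the libraries, 0 with no filter, 0 with the replicate block and 1 with all 11 libraries in one fit. For Nat10-ZcKO maturation 1 was called, against 2 with at least 10 counts, 2 with no filter, 0 with the block and 3 without Nat10-ZcKO GV replicates 1 and 2. For the difference between genotype effects 1 was called, against 0 with DESeq2, library size only, at least 10 counts, no filter, the block, without Nat10-ZcKO GV replicates 1 and 2, and without these and WT MII replicate 2 (added later). The replicate numbers are not stated to pair the libraries. Deviations of libraries with the same number had correlations from -0.05 to 0.14, which cannot settle pairing in groups this small. Under the replicate block the calls of all genes were 0 at MII between genotypes, 0 for WT maturation, 125 for Nat10-ZcKO maturation and 8 for the difference. The block gave the GV *Sall4* value as -0.20 and the WT maturation value of *Gtf2b* as -0.38.

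Calls over all genes moved widely. Between genotypes at GV there were 0, against 3 with DESeq2, 41 with no filter, 25 with all 11 libraries in one fit and 78 without Nat10-ZcKO GV replicates 1 and 2. At MII there were 4, against 9 with DESeq2, 24 with library size only, 17 with at least 10 counts, 0 with no filter and 19 with all 11 libraries. For WT maturation there were 439, against 891 with DESeq2, 925 with library size only, 35 with at least 10 counts, 0 with no filter and 78 with all 11 libraries. For Nat10-ZcKO maturation there were 360, against 789 with DESeq2 and 1445 without Nat10-ZcKO GV replicates 1 and 2. For the difference there were 35, against 17 with at least 10 counts, 10 with no filter, 9 without Nat10-ZcKO GV replicates 1 and 2 and 0 without these and WT MII replicate 2. Over the 8 libraries there were 1534, against 2527 with at least 10 counts. Library size in place of TMM shifted the median log2 fold change of all genes by -0.33 in WT maturation, 0.17 in Nat10-ZcKO maturation, -0.68 in the difference, -0.12 at GV and 0.20 over the 8 libraries, and the share of calls that were higher went from 46.5% to 29.9% in WT maturation and from 62.8% to 73.5% in Nat10-ZcKO maturation.

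Signs turned for values that were not called. At GV *Sall4* (0.12) was -0.049 with library size only, -0.28 with at least 10 counts, -0.32 with no filter, -0.18 with all 11 libraries and -0.24 without Nat10-ZcKO GV replicates 1 and 2, where *Gtf2b* was 0.23, *Nobox* 0.71 and *Lhx8* 0.34. In WT maturation *Gtf2b* (0.38) was -0.82 with DESeq2, -0.63 with at least 10 counts, -0.77 with no filter and -0.59 with all 11 libraries. In Nat10-ZcKO maturation it was -0.019 without Nat10-ZcKO GV replicates 1 and 2. In the difference *Gtf2b* was -0.23 and *Nobox* -0.21 without these and WT MII replicate 2.

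With each library left out in turn, the factors called were 0 to 5 for WT maturation, 0 to 3 for Nat10-ZcKO maturation, 0 to 2 between genotypes at MII, 0 to 3 for the difference and 3 to 4 over the 8 libraries, and the calls of all genes were 0 to 385 at GV, 0 to 1451 at MII, 39 to 1902, 0 to 778, 0 to 948 and 1138 to 1788. The values that turned ranged, at GV, from -0.76 to 0.47 for *Sall4*, -1.50 to 0.20 for *Pou5f1* and -1.76 to 0.22 for *Nobox*, at MII from -0.045 to 5.05 for *Sall4*, in WT maturation from -2.53 to 3.13 for *Sall4* and -7.17 to 0.62 for *Gtf2b*, in the difference from -0.30 to 5.73 for *Lhx8*, and over the 8 libraries from -0.14 to 0.19 for *Gtf2b*. In acRIP-seq, 6337 genes and 3 factors passed the ratio of 2, against 10786 and 9 with no scaling to library size, 3844 genes with at least 10 fragments, and 439 and 0 with a lower bound above 2.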
